A study of Mus musculus with 5 samples.

Results

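The genes described here are the adult globins and the 2 carbonic anhydrases of red cells, Hba-a1, Hba-a2, Hbb-bt, Hbb-bs, Car1 and Car2. They were chosen by name, and all 6 had a row in the table of unique molecular identifiers (UMIs, random tags that let each captured mRNA molecule be counted once), which held 15287 genes in 12893 cells. The cells came from bone marrow of mice aged 20 weeks that carried the alleles Fgd5CreERT2/+ and Rosa26Tomato/+. Lineage-negative cells with surface c-kit, the receptor of hematopoietic progenitors, were sorted as Lin-kit+ cells into 3 libraries of 1339, 4095 and 6147 cells, called a, b and c below. A further 2 libraries, Fgd5+ with 793 cells and HSC-Fgd5+ with 519 cells, held c-kit+ cells that were also positive for the green reporter driven from the Fgd5 gene, which is active in hematopoietic stem cells (HSCs). The labels disagree on which of these 2 libraries was also sorted as Sca1+CD150+CD48neg, so they are treated together as reporter-positive, and every animal, control cells included, carried the same alleles. Tomato would mark a cell only after Cre was activated, and the labels state no treatment. Whether libraries came from separate mice is not stated, so the p-values below measure only the spread between libraries.

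Hemoglobin is a tetramer of alpha and beta chains, each holding a heme with an iron atom that binds oxygen. In the mouse the alpha chains are made from the neighbouring genes Hba-a1 and Hba-a2, and the adult beta chains, in strains with this arrangement, from Hbb-bt and Hbb-bs. Carbonic anhydrases convert carbon dioxide and water into bicarbonate and a proton, which lets red cells carry carbon dioxide to the lung. Car1 is a classical gene of the erythroid lineage, and Car2 is also used by other cells such as osteoclasts. Red cell precursors accumulate most of their globin mRNA late, as they lose c-kit and gain the surface markers of the red cell.

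On GRCm38 (the assembly also called mm10), with GENCODE M21 gene models, Hba-a1 spans chr11:32283511-32284465 and Hba-a2 chr11:32296489-32297298, both on the plus strand with 3 exons. Hbb-bt spans chr7:103812524-103813996 and Hbb-bs chr7:103826534-103828096, both on the minus strand with 3 exons. Car1 spans chr3:14766216-14808368 on the minus strand and Car2 chr3:14886273-14900770 on the plus strand, with 7 exons each. The libraries read the 3′ ends of mRNAs. Of the 60-base windows in the last 400 start positions of the transcript, 85% of Hba-a1 also occurred in Hba-a2, and 81.0% the other way round. For Hbb-bt 60% also occurred in Hbb-bs, and 60.2% the other way round. A read from such a window cannot be placed on 1 gene of the pair, so the counts of each pair rest on the reads that differ and their split is uncertain. No window at the 3′ end of Car1 or Car2 was shared with another gene. Since a UMI counts a molecule once at its end, UMI counts of different genes were compared without division by length.

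The promoters of the 4 globin genes are shown because the globins behaved differently from each other in these cells. Each line gives the 150 bases before the RefSeq start of the gene on GRCm38.p6, 5′ to 3′ along the gene. The RefSeq starts differ from the GENCODE spans above, in which the windows of Hba-a1 and Hbb-bs lie wholly and the others in part. Every match to 1 of 4 motifs, on either strand, is in capitals. The first is CCACACCC, the kind of sequence that Klf1 binds. The second is CCAAT, a common promoter element. The third is ATAAA, which resembles part of a TATA box. The last, AGATAA, is a sequence of the kind that Gata1 binds.
Hbb-bt, chr7:103813924-103814073, minus strand: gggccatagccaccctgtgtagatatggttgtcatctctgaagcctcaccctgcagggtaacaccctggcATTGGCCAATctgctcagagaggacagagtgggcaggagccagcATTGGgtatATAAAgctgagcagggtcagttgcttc
Hbb-bs, chr7:103827929-103828078, minus strand: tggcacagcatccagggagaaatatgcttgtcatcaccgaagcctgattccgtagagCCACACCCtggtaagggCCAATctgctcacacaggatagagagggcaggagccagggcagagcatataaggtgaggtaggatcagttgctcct
Hba-a1, chr11:32283522-32283671, plus strand: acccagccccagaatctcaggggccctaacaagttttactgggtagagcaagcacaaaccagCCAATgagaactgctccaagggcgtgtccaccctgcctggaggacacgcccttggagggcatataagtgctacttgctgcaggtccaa
Hba-a2, chr11:32296342-32296491, plus strand: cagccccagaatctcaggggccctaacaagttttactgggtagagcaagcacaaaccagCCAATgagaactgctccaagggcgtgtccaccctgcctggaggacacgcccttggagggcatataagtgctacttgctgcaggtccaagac
With positions counted back from the RefSeq start, CCACACCC stood at -93 in Hbb-bs and was not found in this window of Hbb-bt, Hba-a1 or Hba-a2. The shorter string CACCC stands in all 4 windows. The full CCACACCC was found on either strand in 2.18% of 32851 promoter windows of this length. CCAAT was found in all 4 windows, at -75 in Hbb-bt, -76 in Hbb-bs, -88 in Hba-a1 and -91 in Hba-a2, and Hbb-bt held it again on the opposite strand at -80 and -36, where the first of these directly adjoins the match at -75. This motif occurred in 24.5% of all windows. ATAAA was found only in Hbb-bt among the 4, at -27, and in 24.1% of all windows, and AGATAA was found in none of the 4 and in 5.65% of all windows. In the best ungapped alignment the Hbb-bt and Hbb-bs windows had the same base at 106 of 149 positions (71.1%), and the Hba-a1 and Hba-a2 windows were identical over 147 positions. These matches describe the letters only.

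The libraries held from 2166655 to 36080242 UMIs, with medians of 3721 to 6567 per cell, and 62 cell barcodes occurred in more than 1 library. Cells were clustered without the 6 genes, the other globins and carbonic anhydrases and Fgd5, and the 23 clusters were named from marker lists that did not contain these genes. In the Lin-kit+ libraries 1036 cells were erythroid-like (8.83% ± 0.571 of a library, SD, n = 3), 375 megakaryocyte-like, 1258 lymphoid-primed multipotent-like, 4038 monocyte or dendritic-like and 3883 neutrophil-like. Of the 15 erythroid markers, 12 were in the table. Their summed level was 1652 CPM (UMIs of a gene per 1000000 UMIs) in erythroid-like cells, against 33.3 CPM in neutrophil-like cells. The clusters were named from this same list, so the difference follows from the naming and is no check of the label. Slc4a1, Alas2 and Ahsp, which mark later erythroid cells, were not analysed here. HSC-like clusters held 778 of the Fgd5+ and 511 of the HSC-Fgd5+ cells but only 31 Lin-kit+ cells. A finer clustering (resolution 2 in place of 1) set off 575 Lin-kit+ cells, called the resolution-2 class below, in clusters that carried HSC markers. Of these, 552 were in 1 cluster that raised Procr, Hlf, Mecom, Ly6a, Meis1 and Esam but not Slamf1, Mllt3 or Hoxb5 and was led by Slc16a11, Wfdc17 and Gm5111, so no cell type name is given to it. The resolution-2 class is largely a subset of the lymphoid-primed class: 549 of its 575 cells (95.5%) were lymphoid-primed multipotent-like in the main clustering, where they made up 43.6% of that class, and the other 26 were HSC-like. The levels by class have no test, since classes are clusters of the same cells, and intervals and floors cover counting error only.

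Erythroid-like cells held far more carbonic anhydrase UMIs than globin UMIs, and few of them had a globin UMI at all. Reads from windows shared within a globin pair may be missing from the counts, which does not concern Car1 and Car2. The globin levels and shares of cells may therefore be too low beside those of Car1 and Car2, and this was not tested. Car1 stood at 3211 ± 458 CPM (SD, n = 3 libraries) and Car2 at 2557 ± 369 CPM, whereas Hba-a1 averaged 104 ± 139 CPM, Hbb-bs 97.9 ± 133 CPM, Hbb-bt 60.4 ± 78.3 CPM and Hba-a2 32.5 ± 41.1 CPM. The globin SDs exceeded their means. A Car1 UMI was found in 77.4% of the 1036 cells (95% exact interval 74.7 to 79.9) and a Car2 UMI in 87.1% (84.9 to 89.0). A Hba-a1 UMI was found in 3.67% of them (2.61 to 5.0), a Hba-a2 UMI in 1.64%, a Hbb-bt UMI in 4.05% and a Hbb-bs UMI in 2.12%. In neutrophil-like cells, which should lack these mRNAs, the shares were 1.42% for Car1, 8.01% for Car2, 0.283% for Hba-a1 and for Hba-a2, 0.232% for Hbb-bt and 0.489% for Hbb-bs, at a median of 5451 UMIs per cell against 3127 in erythroid-like cells. With each cell thinned to 1000 UMIs, erythroid-like cells held Car1 in 70.3% and Hba-a1 in 1.26% of cells, and neutrophil-like cells in 0.258% and 0.0773%.

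A single cell carried most of the globin UMIs of this class. It was in Lin-kit+ b, had 3651 UMIs in all, and held 324 of Hba-a1, 98 of Hba-a2, 180 of Hbb-bt and 323 of Hbb-bs. It also held 43 UMIs of Car2, 1 of Car1 and 2 each of Klf1, Gata1 (the erythroid transcription factors) and Tfrc (the transferrin receptor), and it was not called a doublet. No other erythroid-like cell had more than 20 UMIs of Hba-a1, 9 of Hba-a2, 7 of Hbb-bt or 33 of Hbb-bs. Without it the erythroid-like levels were 22.0 ± 4.13 CPM for Hba-a1, 7.63 ± 2.90 CPM for Hba-a2, 14.8 ± 3.52 CPM for Hbb-bt and 15.9 ± 8.76 CPM for Hbb-bs, while Car1 stayed at 3213 CPM and Car2 at 2548 CPM. This alternative was chosen after the cell had been seen. Over all Lin-kit+ libraries, 9 cells with at least 10 UMIs of Hba-a1, Hba-a2 and Hbb-bs together, out of 11581 cells, held 1042 of the 1368 UMIs of these 3 genes (76.2%).

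Library b stood apart from a and c in the globins but not in the carbonic anhydrases, and most of its globin UMIs came from 1 cell. Hba-a1 was at 2.90 CPM in a, 20.2 in b and 3.3 in c. Hba-a2 was at 1.90, 6.74 and 2.0 CPM and Hbb-bs at 2.20, 20.2 and 6.26 CPM in the same order. Hbb-bt was at 17.3 CPM in b and at 8.51 CPM in its lowest library. In each case library b was the highest. There the cell described above held 324 (Hba-a1) and 98 (Hba-a2) of the 503 alpha-globin UMIs. It also held 180 (Hbb-bt) and 323 (Hbb-bs) of the 702 beta-globin UMIs. Car1 was at 202, 221 and 298 CPM and Car2 at 248, 230 and 306 CPM, with library c the highest for both.

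**Figure D1:**
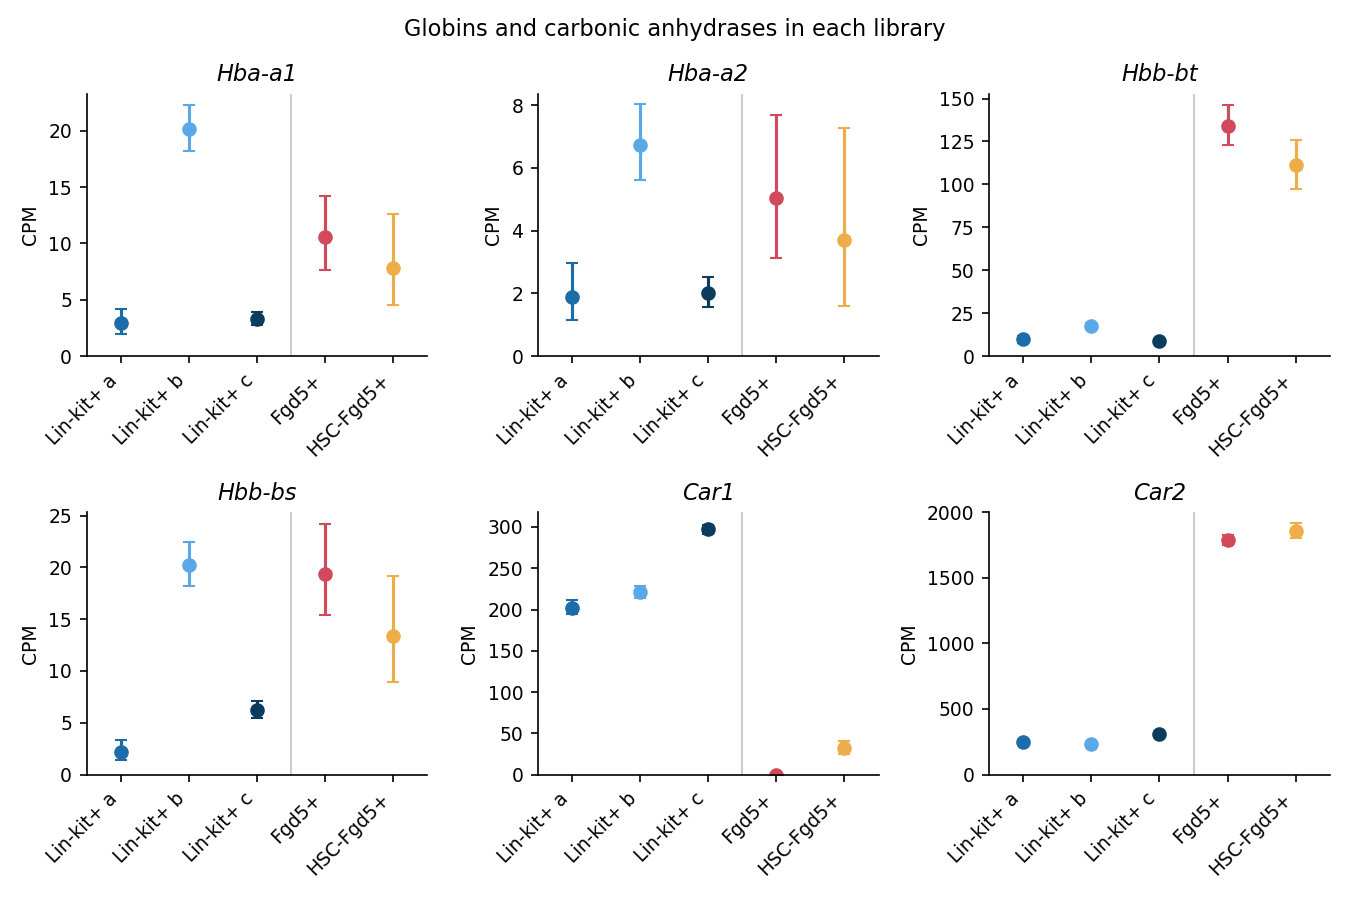
Level of each gene in CPM (linear axes from 0) per library, Lin-kit+ on the left and reporter-positive on the right of each grey line, with exact 95% Poisson intervals. Hbb-bt and Car2 were higher in both reporter-positive libraries than in any Lin-kit+ library, and Car1 was lower. For Hba-a1, Hba-a2 and Hbb-bs the groups overlapped, with Lin-kit+ b, where 1 cell held most of the globin UMIs, the highest library.

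Among the Lin-kit+ classes Car1 had the narrowest distribution. The erythroid-like cells held 93.8% ± 0.274 of its UMIs in a library (SD, n = 3). Megakaryocyte-like cells followed at 235 ± 10.4 CPM, and in every library erythroid-like cells were above megakaryocyte-like cells and these above all other classes. Mast or basophil-like cells had 39.7 ± 32.7 CPM and eosinophil-like cells 35.2 ± 50.2 CPM, which did not differ beyond their spread from lymphoid-primed multipotent-like cells at 12.9 ± 7.23 CPM. Neutrophil-like cells had 9.13 ± 7.81 CPM and monocyte or dendritic-like cells 4.66 ± 3.79 CPM. The resolution-2 class had 8.55 ± 9.22 CPM, with 18 UMIs in 575 cells, and its libraries ran from 0 to 18.3 CPM against 3.57 to 18.1 CPM in neutrophil-like cells. The 31 HSC-like Lin-kit+ cells had no Car1 UMI.

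Car2 reached further into the immature cells. Erythroid-like cells held 68.2% ± 2.34 of its UMIs. The 31 Lin-kit+ cells in HSC-like clusters had 2158 ± 401 CPM, which overlapped the erythroid-like cells, where the libraries ran from 2157 to 2885 CPM. The resolution-2 class had 1052 ± 121 CPM, with a Car2 UMI in 86.8% of cells (83.7 to 89.4). Megakaryocyte-like cells had 673 ± 244 CPM and lymphoid-primed multipotent-like cells 551 ± 62.9 CPM, which overlapped each other. In the latter, 63.7% of cells had a Car2 UMI, or 37.1% after thinning to 1000 UMIs, against 1.75% of thinned neutrophil-like cells. Within the lymphoid-primed class Car2 was at 914, 901 and 1125 CPM in a, b and c in the 549 cells that were also in the resolution-2 class, and at 396, 233 and 314 CPM in the other 709. Mast or basophil-like cells had 103 ± 32.5 CPM and eosinophil-like cells 93.6 ± 52.4 CPM. Neutrophil-like cells, at 21.8 ± 4.35 CPM, were below both in every library, and monocyte or dendritic-like cells had 9.60 ± 5.34 CPM.

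**Figure D2:**
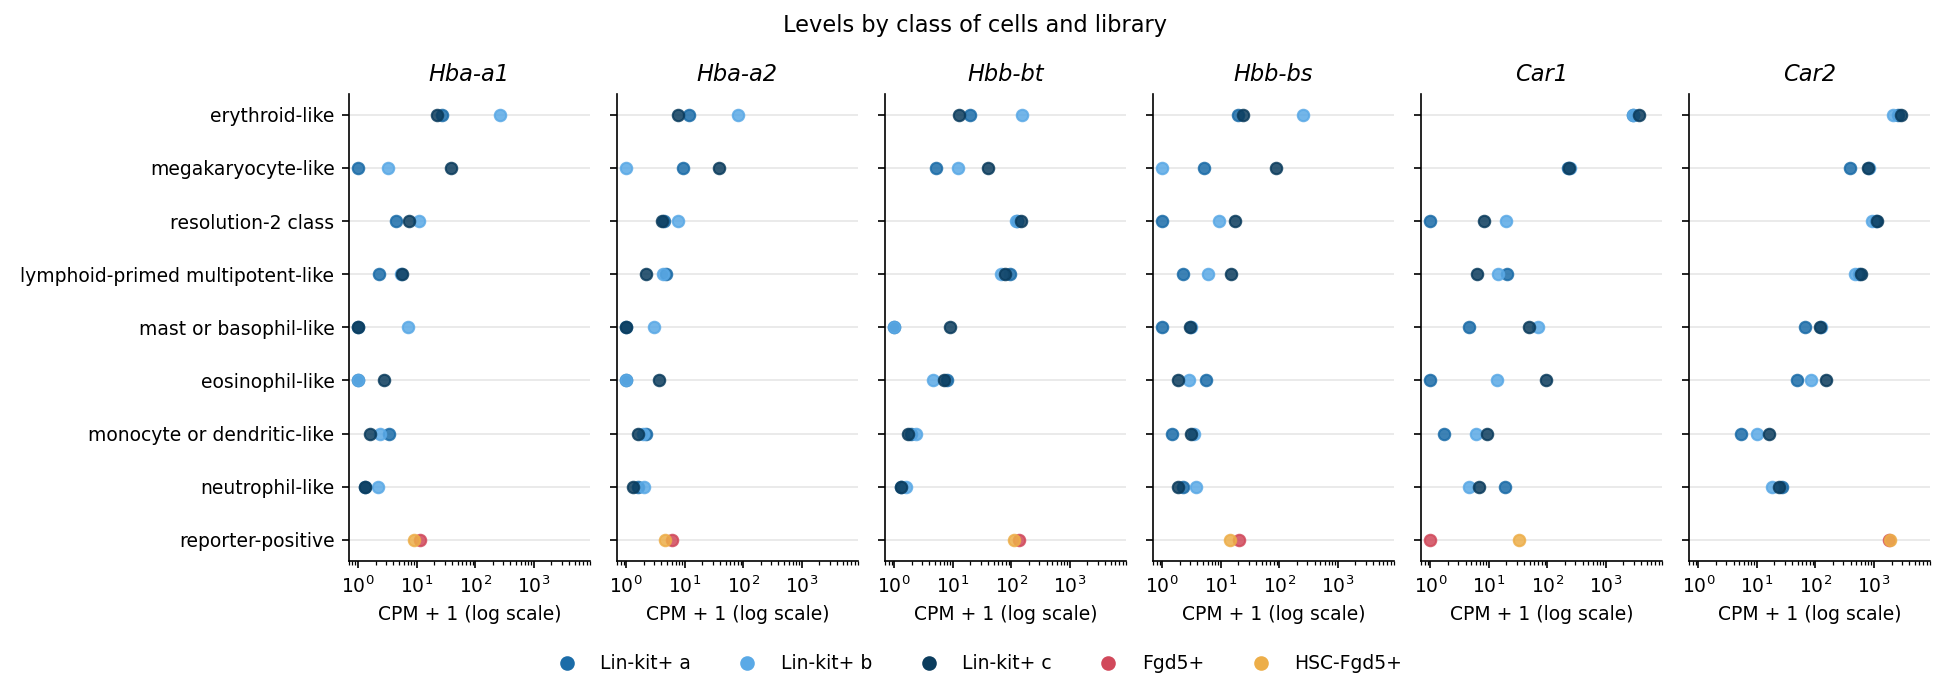
Level of each gene (CPM + 1, log axis) by class of Lin-kit+ cells and in the whole reporter-positive libraries, with 1 point per library. The resolution-2 class shares 549 of its 575 cells with the lymphoid-primed class. Car1 was highest in erythroid-like cells, Car2 in erythroid-like, resolution-2 and reporter-positive cells, and Hbb-bt in reporter-positive, resolution-2 and lymphoid-primed cells and in the erythroid-like cells of Lin-kit+ b.

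Hbb-bt had a distribution of its own among the globins. Lymphoid-primed multipotent-like cells had 94.2 CPM in a, 66.3 in b and 77.0 in c (mean 79.1 ± 14.1), and held 58.5% ± 23.8 of the Hbb-bt UMIs of a library. The resolution-2 class had 122, 118 and 143 CPM (128 ± 13.6). Since it is mostly part of the lymphoid-primed class, the latter was also divided, a split chosen after the values had been seen: its 549 cells inside the resolution-2 class had 136, 121 and 140 CPM and its other 709 cells 73.7, 33.6 and 41.5 CPM. In every library the cells inside were above those outside. The 31 HSC-like Lin-kit+ cells had 0, 0 and 220 CPM (73.4 ± 127), from 6 UMIs in 1 cell (3.23% of cells, 0.0816 to 16.7). The erythroid-like class was at 18.7 and 11.8 CPM in a and c and at 151 CPM in b. A Hbb-bt UMI was found in 11.4% of lymphoid-primed cells (9.74 to 13.3) and in 14.1% of the resolution-2 class (11.3 to 17.2), or in 5.17% and 8.20% after thinning to 1000 UMIs, against 0.0258% of thinned neutrophil-like cells. The other 3 globins were between 2.69 and 6.73 CPM in lymphoid-primed cells and between 4.39 and 8.36 CPM in the resolution-2 class. Monocyte or dendritic-like cells had 1.0 ± 0.332 CPM of Hbb-bt and neutrophil-like cells 0.406 ± 0.165 CPM, the latter lower in every library.

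The split between the 2 beta-globin genes differed in the same way. Of the UMIs of Hbb-bt and Hbb-bs together, Hbb-bt made up 87.3% in Fgd5+ (559 of 640, exact interval 84.5 to 89.8) and 89.2% in HSC-Fgd5+ (240 of 269, 84.9 to 92.7). It made up 98.7%, 92.9% and 84.7% in lymphoid-primed cells of a, b and c, and 100%, 93.4% and 89.5% in the resolution-2 class, whose cells are largely the same. In erythroid-like cells the share was 50%, 37.4% and 34.0%, and 69.2% in place of 37.4% in b without the cell with most globin UMIs. Reporter-positive and lymphoid-primed cells were above the erythroid-like cells of every library. Neutrophil-like cells had 20.9% (9 of 43 UMIs, 10.0 to 36.0) and monocyte or dendritic-like cells 32.4% (24 of 74, 22.0 to 44.3). Within each library the split thus differed between classes. Whole libraries had 81.5% in a, 46.2% in b and 57.6% in c, where most of the UMIs of b were those of the cell with most globin UMIs.

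**Figure D3:**
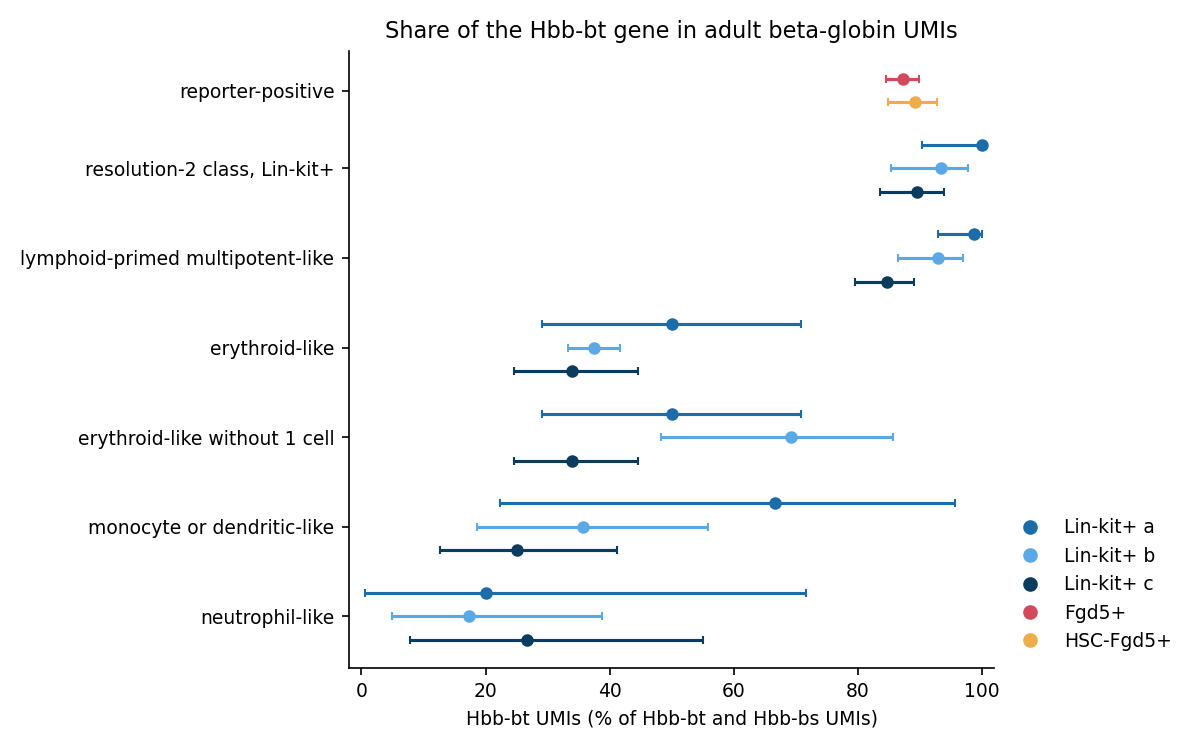
Share of Hbb-bt in the UMIs of Hbb-bt and Hbb-bs (percent) by class and library, with exact 95% binomial intervals. Reporter-positive, resolution-2 and lymphoid-primed cells sit between 84.7% and 100%, and erythroid-like cells between 34.0% and 50%, or up to 69.2% without 1 cell.

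The split of the alpha genes was closer between erythroid-like and reporter-positive cells than that of the beta genes. Hba-a1 made up 70.8%, 76.8% and 76.0% of the alpha-globin UMIs in erythroid-like cells of a, b and c, and 67.7% in Fgd5+ and 68.0% in HSC-Fgd5+, with overlapping intervals. In megakaryocyte-like cells it was 49.3% (37 of 75 UMIs), where a single cell held 36 of the Hba-a1 and 33 of the Hba-a2 UMIs. Car2 made up 47.2%, 42.2% and 43.5% of the Car1 and Car2 UMIs in erythroid-like cells, 63.7%, 77.4% and 76.9% in megakaryocyte-like cells, 100% in Fgd5+ (7448 of 7448) and 98.3% in HSC-Fgd5+.

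Along the stage score of the erythroid-like cells both carbonic anhydrases were higher in each later group, while the globins showed no common course. The cells were ordered by a score of late against early erythroid genes that contained none of the 6 genes, and cut into 3 equal groups. Car1 was at 900, 1235 and 1336 CPM in the lowest group of a, b and c, at 2398, 2836 and 3642 CPM in the middle group and at 4123, 3828 and 4684 CPM in the highest. Car2 was at 1131 ± 161, 1872 ± 288 and 3543 ± 417 CPM (SD, n = 3). In every library each later group was above the one before it, for both genes. Tfrc, which the score used, went from 2.39 to 46.3 CPM and Gata2, an early factor it also used, from 334 to 20.7 CPM, while Klf1, which it did not use, went from 129 ± 46.7 to 234 ± 94.7 CPM. The median depth was 2426, 2936 and 5750 UMIs per cell and its part in these values was not tested, although CPM are divided by depth. The limits are arbitrary, with 321 of the 1036 cells within 0.1 SD of one. When cells were ordered by their first principal component instead, Car1 was at 1357, 1855 and 4321 CPM and Car2 at 998, 1284 and 3549 CPM on average. The median depth then rose more steeply, with 2062, 3102 and 7182 UMIs per cell, and Klf1 was at 180, 149 and 239 CPM. In that order Car1 of library a did not follow, with 1504, 1291 and 4125 CPM, while Car1 in b and c and Car2 in all 3 libraries were higher in each later group. In the groups of the stage score Hba-a1 was at 19.9 ± 28.4, 2.11 ± 2.56 and 209 ± 303 CPM, and the last value rested on the cell with 324 UMIs. The second highest cell of the last group held 6.

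**Figure D4:**
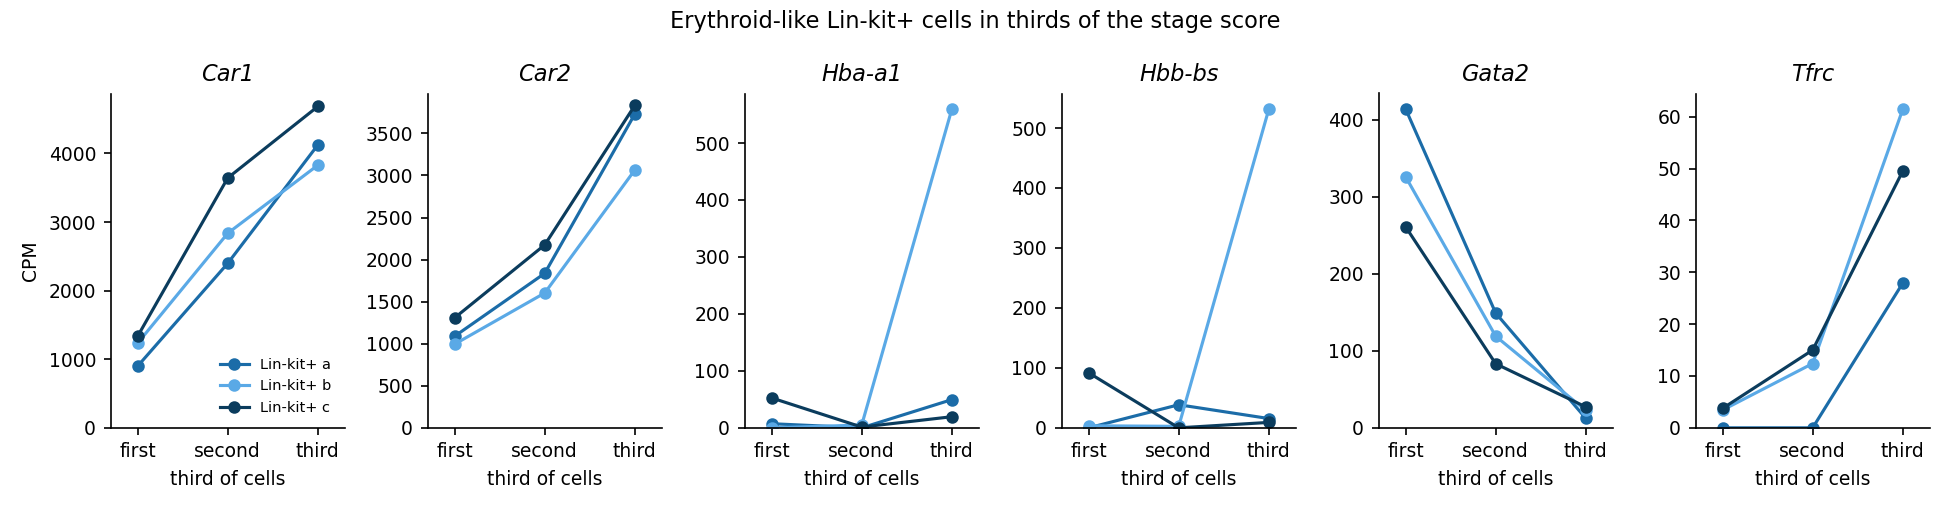
Level (CPM, linear axes from 0) of Car1, Car2, Hba-a1, Hbb-bs and of the score genes Gata2 and Tfrc in 3 equal groups of erythroid-like Lin-kit+ cells, from the lowest to the highest stage score, with 1 line per library. Car1 and Car2 were higher in each later group of every library, and the peak of Hba-a1 and Hbb-bs in Lin-kit+ b came from 1 cell.

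The question of how stem-like cells differ from Lin-kit+ cells was addressed by a test over the libraries. In the reporter-positive cells Car2 and Hbb-bt were higher than in whole Lin-kit+ libraries, Car1 was lower, and the remaining globins did not pass the threshold. Car2 was at 1787 CPM in Fgd5+ and 1857 CPM in HSC-Fgd5+, above each library of Lin-kit+ cells (log2 fold change 2.26 ± 0.12, SE, edgeR quasi-likelihood test, adjusted p = 8.92e-06). Hbb-bt was at 134 and 111 CPM against 9.70, 17.3 and 8.51 CPM, and the groups did not overlap (log2 fold change 2.84 ± 0.30, edgeR adjusted p = 0.000178). Car1 was at 0 UMIs in Fgd5+, where 3 counts would be 0.720 CPM, and at 32.3 CPM in HSC-Fgd5+ (log2 fold change -4.75 ± 0.96, edgeR adjusted p = 0.00419). With a library at 0 this fitted value depends on the prior count, and DESeq2 gave -4.54 with an adjusted p of 0.0747. The log2 fold changes of Hba-a1, Hba-a2 and Hbb-bs were -0.44 ± 1.01, -0.19 ± 0.76 and 0.24 ± 0.81 (edgeR adjusted p = 0.725, 0.852 and 0.815).

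Thus 3 of the 6 genes passed an adjusted p of 0.05, 2 higher and 1 lower, while 63.1% of the 11991 genes tested did, 32.7% higher and 30.4% lower, so passing the threshold is common in this comparison. In summed libraries, fewer cells of a type and less RNA per cell cannot be told apart. Counts scaled to library totals in place of TMM (a scaling that centres the bulk of genes) moved the median log2 fold change of all genes from 0.07 to 0.60, and the calls from 3921 higher and 3646 lower to 6586 higher and 1993 lower. Under that scaling the values of Hba-a1 and Hba-a2 changed sign to 0.10 and 0.35, and Car2 (2.80), Hbb-bt (3.38) and Car1 (-4.20) kept their direction. Without the 1 erythroid-like cell of Lin-kit+ b, Hba-a1 was higher in the reporter-positive libraries by 1.10 ± 0.22 (edgeR adjusted p = 0.00367) on the log2 scale. Hba-a2 was higher by 0.79 ± 0.29 (edgeR adjusted p = 0.0478) and Hbb-bs by 1.49 ± 0.44 (edgeR adjusted p = 0.0205). A globin-rich cell was left out on the Lin-kit+ side only, while an Fgd5+ cell with 11 UMIs of Hba-a1 and 29 of Hbb-bs stayed in. Without Lin-kit+ b as a whole, Hba-a1 had 1.06 (adjusted p = 0.0156), and Hba-a2 and Hbb-bs did not pass.

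Against Lin-kit+ cells outside the erythroid-like clusters (10545 cells), 5 of the 6 genes were higher in the reporter-positive libraries, where 63.9% of 11933 genes passed in either direction and 33.3% were higher. The log2 fold change was 3.79 ± 0.09 for Car2 (edgeR adjusted p = 7.49e-07), 3.36 ± 0.13 for Hbb-bt (3.56e-06), 1.94 ± 0.25 for Hba-a1 (0.000509), 1.81 ± 0.49 for Hbb-bs (0.0141) and 1.12 ± 0.30 for Hba-a2 (0.0144). In these Lin-kit+ cells Car2 was at 88.8 ± 7.60 CPM, Hbb-bt at 8.19 ± 0.915 CPM, Hba-a1 at 1.60 ± 0.293 CPM and Hbb-bs at 2.90 ± 1.93 CPM. The resolution-2 class, part of them, was near the reporter-positive libraries in Hbb-bt (128 against 122 CPM) and Hba-a2 (4.39 against 4.37). It overlapped those libraries in Hba-a1 (3.38 to 9.99 against 7.85 to 10.6 CPM) and Hbb-bs (0 to 16.7 against 13.4 to 19.4 CPM). Car2 was lower in this class (1052 against 1822 CPM), and none of these differences was tested. The Hba-a2 call was lost with DESeq2 (adjusted p = 0.0904), and both the Hba-a2 and Hbb-bs calls were lost without Fgd5+ (edgeR adjusted p = 0.256 and 0.166). Hbb-bs also did not pass without a shallow HSC-like cluster of 145 cells (adjusted p = 0.0555). Car1 did not pass (-0.86 ± 0.98, edgeR adjusted p = 0.472). Its value in HSC-Fgd5+ came from a single cell that clustered with the erythroid-like cells, held 68 of the 70 Car1 UMIs of both libraries and 4 each of Klf1 and Gata1, and had 16 UMIs of Car2. With HSC-like reporter-positive cells only, 2 Car1 UMIs remained, both in HSC-Fgd5+, and Car1 was lower than in the same Lin-kit+ cells (log2 fold change -6.14 ± 0.57, adjusted p = 7.6e-05).

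**Figure D5:**
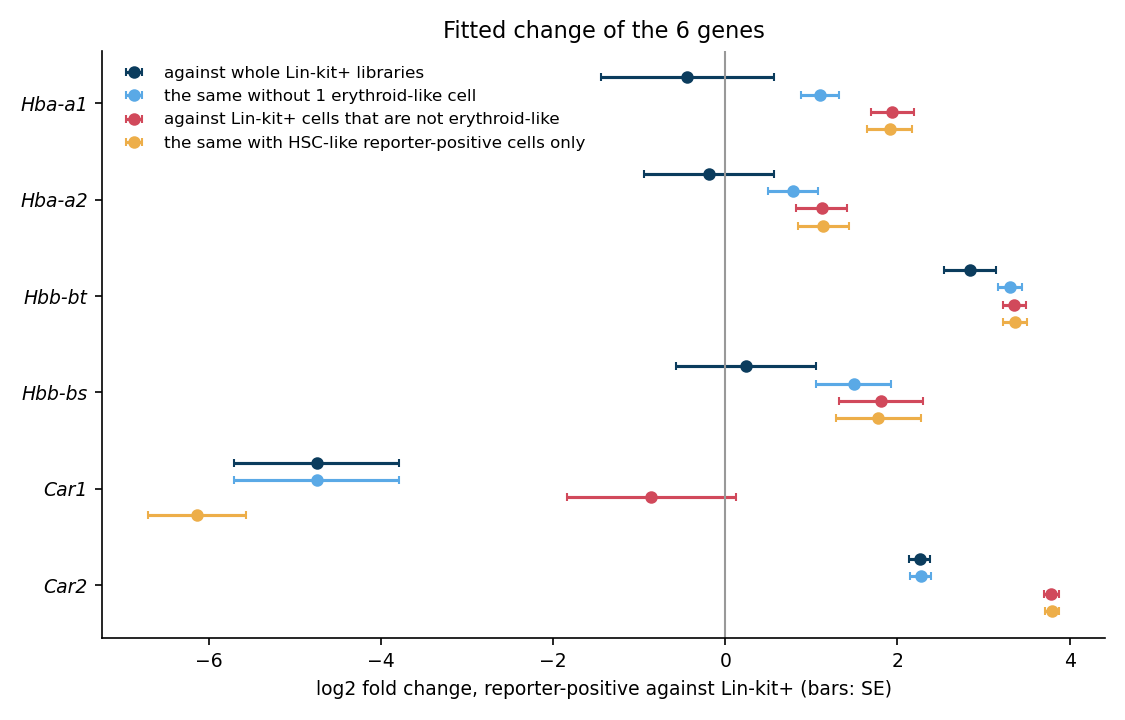
Log2 fold change of each gene (reporter-positive over Lin-kit+, SE as bars) from 4 edgeR fits that differ in the cells used. Car2 and Hbb-bt lie above 0 in all 4, Hba-a1 and Hba-a2 change sign when 1 erythroid-like cell is left out, and Car1 lies below 0 in all 4 with the widest range.

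Car2 was detected in nearly every reporter-positive cell and Hbb-bt in a minority. A Car2 UMI was present in 98.1% of Fgd5+ cells and 92.7% of HSC-Fgd5+ cells, or 75.5% and 76.5% after thinning to 1000 UMIs, and 269 of the 1312 cells held 50% of its UMIs. A Hbb-bt UMI was present in 18.8% of Fgd5+ cells (16.1 to 21.7) and 15.4% of HSC-Fgd5+ cells (12.4 to 18.8). There, 1083 cells had none, 114 had 1 and 115 had at least 2, up to 24. Of the 20 cells with at least 10 Hbb-bt UMIs, 19 had no UMI of Hba-a1, Hba-a2 or Hbb-bs, whereas the erythroid-like cell with 180 Hbb-bt UMIs held 98 or more of each other globin. Among Lin-kit+ cells 8 had at least 10 Hbb-bt UMIs and 5 of these had no other globin UMI, all 5 in the lymphoid-primed class.

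The reporter-positive cells with a Hbb-bt UMI did not have a higher level of erythroid markers than those without. The 229 cells with one had a median of 4549 UMIs against 4112 in the other 1083. Their summed erythroid markers were at 134 against 157 CPM, HSC markers at 1591 against 1663 CPM, megakaryocyte markers at 366 against 521 CPM and Car2 at 1845 against 1802 CPM. A UMI of another globin was found in 11.8% of them (7.92 to 16.7) against 5.72% (4.42 to 7.28), at a slightly higher depth. Over the whole libraries the 12 erythroid markers summed to 151 CPM in Fgd5+ and 156 CPM in HSC-Fgd5+, against 161 to 178 CPM in Lin-kit+ libraries, mostly from Blvrb (85.9 and 85.8 CPM), a heme-breakdown enzyme. Rhd, Ermap and Cldn13 were at 0 in Fgd5+, and Rhd and Cldn13 in HSC-Fgd5+. The globin levels were lower in deeper cells of Fgd5+, whereas Car2 differed with depth in HSC-Fgd5+ and not beyond its intervals in Fgd5+. In the shallowest of 3 equal groups of Fgd5+ cells Hbb-bs was at 71.6 CPM against 5.39 CPM in the deepest, and 29 of its UMIs were in 1 cell that also held 11 of Hba-a1. Hbb-bt was at 170, 141 and 118 CPM across these groups, Hba-a1 at 39.6, 6.90 and 2.25 CPM, Hba-a2 at 15.3, 4.31 and 1.80 CPM, and Car2 at 1784, 1772 and 1795 CPM. In HSC-Fgd5+ Car2 was at 1497 CPM in the shallowest group (exact interval 1355 to 1650), 1880 CPM in the middle one and 1924 CPM in the deepest (1848 to 2003). There Hbb-bt was at 202 CPM (152 to 263) in the shallowest and 96.4 CPM (79.9 to 115) in the deepest group, and the intervals of Hba-a1, Hba-a2 and Hbb-bs overlapped between these 2 groups. The part of depth in the comparisons was not tested.

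The genes around hemoglobin were followed in lists that named them by function, and their counts are to be read against all genes tested, of which 63.1% passed, 32.7% higher and 30.4% lower. The list of 12 globin gene regulators, all tested, had 9 higher and 3 lower in the reporter-positive libraries, with a median log2 fold change of 0.87 against 0.07 for all genes. Zfpm1, the cofactor of Gata1, had 3.81 ± 0.58, Lmo2 3.22 ± 0.33 and Sox6, a repressor of embryonic beta-globin, 3.0 ± 0.22, whereas Klf1, the activator of adult beta-globin, had -3.43 ± 0.51 and Gata1 -1.84 ± 0.19, all past the threshold of edgeR. Against non-erythroid Lin-kit+ cells 9 of these 12 were higher and 1, Myb, was lower, beside 33.3% and 30.6% of all genes, and Klf1 and Gata1 did not pass. Of 11 red cell membrane and bicarbonate transport genes with a row, 7 were tested, and 6 were lower, beside 30.4% of all genes, and 1, Gypc, was higher (0.65 ± 0.12). Ermap had -4.84 ± 0.64 and Kel -3.90 ± 0.83, and Rhd had 0 UMIs in both reporter-positive libraries. Against non-erythroid Lin-kit+ cells only 2 of these genes were tested and both were higher, beside 33.3% of all genes. Gypc was higher by 0.75 ± 0.12 and Aqp1, a water channel, by 1.40 ± 0.26 (edgeR adjusted p = 0.00285), where Aqp1 had been lower than in whole Lin-kit+ libraries (-1.29 ± 0.21).

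Heme synthesis had 4 of 8 tested enzymes lower and none higher, beside 30.4% and 32.7% of all genes, with a median of -0.36. Against non-erythroid Lin-kit+ cells 2 of the 8 were lower and none higher, beside 30.6% and 33.3% of all genes. Alas1, the housekeeping form of the first enzyme, had -3.54 ± 0.09, Cpox -0.67 ± 0.16 and Alad -0.63 ± 0.12. Scaled to library totals this list had 3 higher and 2 lower, beside 54.9% and 16.6% of all genes. Alas1 was at 11.1 CPM in erythroid-like cells and at 174 ± 4.66 CPM in whole Lin-kit+ libraries. Iron uptake and storage had 6 of 8 genes lower and none higher, also beside 30.4% and 32.7% of all genes, led by the iron exporter Slc40a1 (-3.19 ± 0.24), Tfrc (-3.09 ± 0.18) and Steap3 (-2.51 ± 0.22). With library totals it had 4 lower and 1 higher, beside 16.6% and 54.9% of all genes. Of the 5 hemoglobin partners with a row, 3 were higher, Nt5c3 by 1.02 ± 0.13, Bpgm, which makes the phosphate that lowers the oxygen affinity of hemoglobin, by 0.63 ± 0.11, and Xpo7 by 0.47 ± 0.14, and none was lower. These 3 of 5 are near the 63.1% of all genes that passed. Of 10 other carbonic anhydrases with a row 5 were tested. Car11, which lacks enzyme activity, was higher (4.06 ± 0.38) at 4.08 and 4.62 CPM, and Car12 (-1.18 ± 0.42) and Car9 (-0.75 ± 0.17) were lower. Thus 3 of 5 passed, again near the 63.1% of all genes, and scaled to library totals neither Car12 (-0.66) nor Car9 (-0.21) passed. In erythroid-like cells Car3 was the highest of these 10, at 12.8 ± 2.84 CPM. The 8 other globin genes of the list were not analysed here.

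The genes most like each member across 18 clusters of Lin-kit+ cells, by Pearson's r of log2(CPM + 1) among 10155 genes, are given as a description, since clusters share libraries and depth. Hba-a1 was most like Hbb-bs (r = 0.964), Hba-a2 (0.917) and Cyth3 (0.903). Hba-a2 was followed after Hba-a1 by Cyth3 (0.904), and Hbb-bs after the 2 alpha genes by Nfia (0.857). The values of these globins rest on few cells, since 9 of the 11581 Lin-kit+ cells held 76.2% of their UMIs. Hbb-bt was most like 2900026A02Rik (0.944), Akt2 (0.902) and Car2 (0.90), with none of the other globins among its 3. Car1 was most like Gm15915 (0.965), Ces2g (0.960) and Aqp1 (0.957), the water channel of red cells. Car2 was most like Gfi1b (0.941), a factor of erythroid and megakaryocyte cells, Art4 (0.937) and Rab4a (0.929).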

How the data were processed

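Bone marrow cells of 5 sorted libraries were profiled with the 10x 3′ kit (version 2 chemistry). Per the labels, the authors' processing used Cell Ranger 1.3 and 2.1, Seurat 2.3.4 and mm10, and the gene annotation is not given in the sources used here. The authors deposited raw UMI counts of genes seen in at least 3 cells in 1 table. Libraries were told apart by the 5 barcode suffixes, and the populations of the suffixes rest on their numbers of cells.

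The 6 genes and the lists were chosen with earlier results of these data known. Cells were clustered with scanpy 1.11.5 (2000 variable genes, 20 components, 15 neighbours, resolution 1) and named where at least 3 markers of a list were raised 2-fold or more in at least 5% of cells, a limit set after the clusters had been seen. 1 cluster of 92 cells, of which 73.9% were called doublets, stayed unnamed. The 165 cells called doublets (1.28%) were kept. CPM are summed UMIs per 1000000, intervals are exact at 95%, floors are 3 counts, and 16 cells under 1000 UMIs were left out of thinned shares. Summed counts were tested with edgeR 4.0.16 in R 4.3.3 (TMM, filterByExpr, quasi-likelihood, Benjamini-Hochberg), 2 libraries against 3, and the SE is the log2 fold change over the root of F. Data were simulated for the comparison with whole Lin-kit+ libraries, with 200 of 11991 genes changed. There, 86% of 4-fold and 49.8% of 2-fold changes were recovered, and 7.24% of the calls fell on unchanged genes. In the real comparison 63.1% of genes passed, so these rates may not carry over to it. Named genes were the 6 members, the 3 genes most like each, and up to 4 per list with the largest change past the threshold, and a few genes that this rule names are not reported here. Alternatives were DESeq2 1.42.0, other filters, scalings, resolutions and cells, and each library left out. Sequences are from RefSeq (GRCm38.p6), which gave promoters for the 4 globins.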

Additional observations from a re-analysis of the deposited data

How the results depend on the processing

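Car2 and Hbb-bt stayed higher in the reporter-positive libraries and past the threshold under every alternative run in both comparisons, between 2.17 and 4.36 for Car2 and between 2.61 and 3.92 for Hbb-bt (log2 fold change). Leaving out 1 library at a time, against whole Lin-kit+ libraries, gave -0.92 to 1.06 for Hba-a1, -0.58 to 0.68 for Hba-a2, -0.17 to 1.34 for Hbb-bs and -15.06 to -3.46 for Car1, and 5964 to 7668 genes called. Hba-a1 and Hba-a2 turned positive with library totals (0.10 and 0.35), without Lin-kit+ b (1.06 and 0.68) and without the cell with most globin UMIs (1.10 and 0.79), and Hbb-bs was 1.49 without that cell. Hbb-bs turned negative without the shallow HSC-like cluster (-0.23), without Lin-kit+ a (-0.17), c (-0.05) or Fgd5+ (-0.12). DESeq2 gave Car1 -4.54 and lost its call. Against non-erythroid Lin-kit+ cells, leaving out 1 library gave 0.80 to 1.31 for Hba-a2, 1.46 to 2.47 for Hbb-bs, and -11.06 to 0.42 for Car1, which was 0.42 without Fgd5+ and -11.06 without HSC-Fgd5+, the library with the Car1-rich cell, and -6.14 with HSC-like reporter-positive cells only. Hba-a2 was 1.03 with DESeq2 and Hbb-bs 1.35 without the shallow cluster, neither past the threshold.

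Among the values without a test, the share of Car1 UMIs in erythroid-like cells was 93.4% at resolution 2 and with filtered cells, 95.3% without doublets, 94.8% thinned and 66.7% when the 6 genes entered the clustering, which left a cluster of erythroid and megakaryocyte cells unnamed. For Car2 it was 65.6% at resolution 0.5, 65.2% at resolution 2, 64.8% with filtered cells, 55.9% thinned and 51.9% with the 6 genes in the clustering. The Hbb-bt share of beta-globin UMIs in erythroid-like cells without the cell with most globin UMIs was 51.1% as a mean over libraries. With the UMIs pooled it was 43.1% (62 of 144). In the reporter-positive libraries the share was 86.2% thinned and 90.3% without the shallow cluster. The Car2 share of Car1 and Car2 UMIs in erythroid-like cells was 40.4% thinned. No paired analysis was possible because the columns carry no replicate numbers that link libraries across groups. Depth limits the rarer globins: Hba-a2 had 29 UMIs in all reporter-positive cells. The alternatives on the shallow cluster, on HSC-like reporter-positive cells, on megakaryocyte-like cells and on the cell with most globin UMIs were chosen after seeing the data.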

Other observations

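In Lin-kit+ c a megakaryocyte-like cell with 6848 UMIs held 36 UMIs of Hba-a1, 33 of Hba-a2, 25 of Hbb-bt and 75 of Hbb-bs, next to 19 of Car1, 6 of Car2 and 1 of Gata1. It carried most of the globin UMIs of its class, whose Hbb-bs level was 30.8 ± 49.8 CPM (SD, n = 3 libraries). Among neutrophil-like cells 1 cell held 54 of the 156 Car1 UMIs of the class, and the next highest held 24.

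T or NK-like cells, 35 in the Lin-kit+ libraries, had no globin and no Car1 UMI and a Car2 UMI in 25.7% of cells (exact interval 12.5 to 43.3). The 26 B-lymphoid-like cells had 1 Car2 UMI and none of the other 5 genes. The 92 unnamed cells, of which 73.9% were called doublets, had Car1 in 9.78% and Car2 in 27.2% of cells.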
